A study of Mus musculus with 15 samples.

Results

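The enzyme SULT2B1b transfers sulfate onto cholesterol and onto oxysterols, the oxidised sterols that are natural ligands of the nuclear receptors LXR alpha and LXR beta. Tumour-infiltrating monocytes and macrophages can take up such sterols, and LXRs, SREBP2 and interferon-responsive factors are among the regulators known to set their lipid, antigen-presentation and inflammatory programmes. Interferon-gamma, made chiefly by T and NK cells, acts through the kinases JAK1 and JAK2 and turns on IRF1, the MHC class II regulator CIITA, guanylate-binding proteins and the chemokine CXCL9. The data described here are the Ly6Clow cells of Lewis lung carcinoma (LLC) tumours, a transplantable mouse lung tumour line, sorted from control tumours (Mock-LLC) or from tumours grown from the line with SULT2B1b (SULT2B1b-LLC).

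The comparison was defined by the labels alone, and its members are 7 of the 15 libraries of the series: 4 of Mock-LLC tumours, numbered 1 to 4, and 3 of SULT2B1b-LLC tumours, numbered 2 to 4. All were sorted by flow cytometry as Ly6C low cells from tumours established for 10 days, and total RNA was sequenced. The other 8 libraries are Ly6Chigh CD11c+ MHC-II+ cells, labelled Mock-LLC 1 to 4 and SULT2B1b-LLC 1 to 4. The labels give the tumour genotype, the tumour number and the sort; they do not describe host mice, vectors or further markers of the Ly6Clow gate. The genotype is that of the tumour line, and the sorted cells are labelled as myeloid cells.

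The 7 libraries held 19792494 to 39284008 counts assigned to genes. A floor of 3 counts corresponded to 0.0764 to 0.152 CPM (counts scaled to a common library size). Levels in CPM were scaled with TMM factors, and differences are log2 fold changes of SULT2B1b-LLC over Mock-LLC with their standard error. Adjusted p-values come from edgeR's quasi-likelihood test of the 7 libraries over all 14641 genes that passed a filter on low counts, and a gene is said to have risen or fallen where the adjusted p was under 0.05. Values per library are given in the order Mock-LLC 1, 2, 3 and 4, then SULT2B1b-LLC 2, 3 and 4. Replicates correlated at 0.938 to 0.976 on log2 CPM and differed by far more than counting noise, with a chi-square per degree of freedom of 20.9 to 48.0.

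Sult2b1 transcripts themselves (chromosome 7, 45729983 to 45784669, GRCm38) were scarce in the sorted cells. They stood at 0.274, 0, 0.499 and 0.397 CPM in Mock-LLC and at 1.10, 1.27 and 2.37 CPM in SULT2B1b-LLC libraries. The groups did not overlap, yet the difference did not pass (log2 2.46 ± 0.90 SE, adjusted p = 0.243). The direction is that of the labels, and transcripts of stray tumour cells cannot be told apart from those of the sorted cells. The Ly6c genes are near-identical copies whose reads can be split wrongly. Ly6c2 ran from 19.0 to 33.7 CPM in Mock-LLC and from 19.6 to 32.1 CPM in SULT2B1b-LLC libraries (adjusted p = 0.972), and Ly6c1 had 0 to 8 counts per Mock-LLC library and 2 to 21 per SULT2B1b-LLC library. Macrophage markers were abundant in every library. The summed level of 11 of them, among them Adgre1 (F4/80), Csf1r and the C1q genes, was 19340 to 22480 CPM in Mock-LLC and 29290 to 31080 CPM in SULT2B1b-LLC. Within that sum the single gene Apoe held 6495 to 9076 CPM in Mock-LLC and 12010 to 13770 CPM in SULT2B1b-LLC. The defining neutrophil gene Ly6g had 1 count in all 7 libraries together.

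Of the 14641 genes tested, 422 passed (2.88%), 250 higher (1.71%) and 172 lower (1.17%) in SULT2B1b-LLC, while the median log2 fold change over all genes was -0.01. More than 2-fold differences were found for 105 of the higher and 78 of the lower genes. Over all genes tested, the 3 SULT2B1b-LLC libraries lay above all 4 Mock-LLC libraries for 7.92% and below them for 7.65%. Among genes with an average log2 CPM of at least 3, the 15 largest rises were those of Cxcl9, Serpina3g, Fam26f, Iigp1, Gbp4, Gbp8, the non-coding AW112010, Pdcd1lg2, Slamf8, C3, Ly6a, Gbp5, Gbp2, Vcam1 and Il18bp. The 15 largest falls were those of Spp1, Mlxipl, Nt5e, Mmp3, Cspg4, Vcan, Cxcl14, Lum, Epha2, Dbn1, Serpinh1, Mdm1, Egln3, Hp and Plcb1, and osteopontin, versican, lumican and a metalloproteinase are encoded among them. Of these 30, Gbp8, Vcam1, Mmp3, Cspg4, Lum, Epha2, Dbn1, Serpinh1, Egln3 and Plcb1 did not pass in every fit with 1 library left out. The count itself fell to 237 without Mock-LLC 3, 193 without SULT2B1b-LLC 2, 243 without SULT2B1b-LLC 3 and 249 without SULT2B1b-LLC 4.

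**Figure D1:**
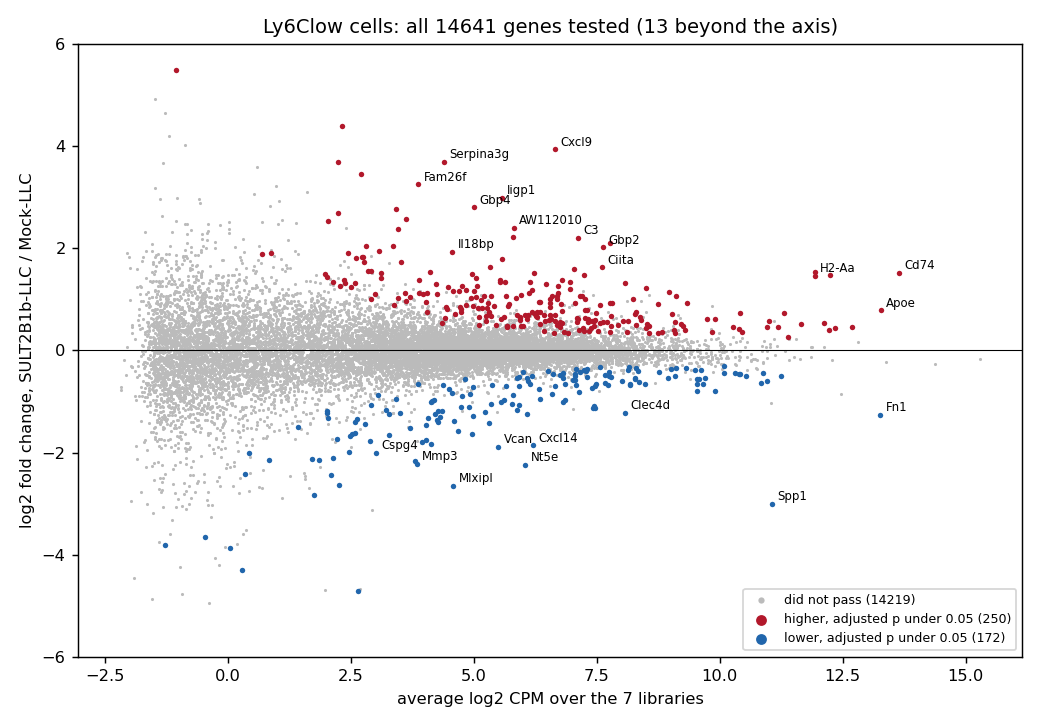
Log2 fold change of SULT2B1b-LLC over Mock-LLC (vertical axis) against average log2 CPM (horizontal axis) for the 14641 genes tested in Ly6Clow cells, with 250 higher genes in red, 172 lower genes in blue and the rest in grey; 13 genes lie beyond the axis. Among genes with an average log2 CPM of at least 3, Cxcl9 and Serpina3g stand highest and Spp1 lowest.

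Several transcriptional regulators of the interferon-gamma pathway rose. Of 17 signalling genes tested, 4 rose and none fell, among them Irf1, the MHC class I regulator Nlrc5 and the MHC class II regulator Ciita. Ciita (chromosome 16, 10480059 to 10528418) stood at 102, 92.4, 102 and 115 CPM in Mock-LLC and at 314, 275 and 363 CPM in SULT2B1b-LLC libraries. All 3 SULT2B1b-LLC values lay above the 4 Mock-LLC values, and Ciita rose 3.09-fold (log2 1.63 ± 0.11, adjusted p = 0.000245). Irf1, an interferon-responsive transcription factor, stood at 70.7, 63.7, 89.6 and 78.6 CPM against 211, 190 and 170 CPM (2.52-fold, adjusted p = 0.0012). The receptor chains and the kinases did not pass, with log2 fold changes of 0.04 for Ifngr1, -0.02 for Ifngr2, 0.07 for Jak1 and 0.14 for Jak2 (adjusted p = 0.766 to 0.949). Nlrc5 passed in the fit of all 7 libraries (log2 1.00 ± 0.18, adjusted p = 0.0231), but without 1 library it passed in 2 of 7 fits.

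Cxcl9 encodes the chemokine that draws CXCR3-bearing T cells, and it showed the largest rise among genes with an average log2 CPM of at least 3. Its level (chromosome 5, 92321347 to 92328079) was 18.9, 12.9, 11.3 and 12.8 CPM in Mock-LLC and 264, 198 and 182 CPM in SULT2B1b-LLC libraries. The lowest SULT2B1b-LLC library was thus far above the highest Mock-LLC library, and the rise was 15.3-fold (log2 3.94 ± 0.20, adjusted p = 4.03e-05). Cxcl10, which acts on the same receptor, rose from 76.3, 61.2, 66.0 and 60.0 CPM to 164, 186 and 126 CPM (log2 1.27 ± 0.14, adjusted p = 0.00238). Cxcl11 was scarce, at 0.760 to 2.05 CPM in Mock-LLC and 2.07 to 8.73 CPM in SULT2B1b-LLC, and did not pass (adjusted p = 0.138). The serine protease inhibitor gene Serpina3g (chromosome 12, 104236245 to 104241939), an interferon-gamma-induced inhibitor of cathepsins, had the smallest p-value of the 14641 genes. Its level was 3.19, 3.81, 3.14 and 3.48 CPM in Mock-LLC and 46.9, 43.3 and 42.9 CPM in SULT2B1b-LLC libraries, with little spread in either group (12.97-fold, log2 3.70 ± 0.13, adjusted p = 8.82e-06). The paralogue Serpina3f rose as well, from 0.0767 to 0.978 CPM in Mock-LLC to 10.5 to 11.3 CPM, and reads shared between these copies cannot be assigned with certainty.

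Of 29 interferon-gamma-induced effector genes tested, 17 rose and none fell, with a median log2 fold change of 0.91. Besides those named, Slamf8, a receptor that dampens the phagocyte oxidase, went from 21.2, 18.7, 25.1 and 22.3 CPM to 102, 88.8 and 114 CPM (4.66-fold, adjusted p = 0.000101). Il18bp, the soluble inhibitor of interleukin 18, rose 3.82-fold from 11.1, 9.46, 10.1 and 12.0 CPM to 48.2, 42.1 and 31.9 CPM. Acod1, which makes itaconate, rose from 45.9, 46.3, 44.3 and 35.9 CPM to 133, 97.9 and 94.9 CPM (log2 1.33 ± 0.14), and Cd40, the receptor for CD40 ligand, rose 1.62-fold. Other effectors did not pass. Nos2, the inducible nitric oxide synthase, stood at 2.75 to 5.22 CPM in Mock-LLC and 3.14 to 8.88 CPM in SULT2B1b-LLC (adjusted p = 0.813), and Ido1 had at most 20 counts in a library. The count of 17 became 11 to 16 with 1 library left out, the lowest value being that without SULT2B1b-LLC 2, and the median stayed between 0.80 and 1.05. Counts of Ifng itself were 1 over the Mock-LLC and 2 over the SULT2B1b-LLC libraries, and the T cell markers Cd4 and Lck summed to at most 1.07 CPM in Mock-LLC and to 1.70 to 4.57 CPM in SULT2B1b-LLC; the part of such cells was not tested.

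The interferon-induced GTPases of the guanylate-binding protein (GBP) and immunity-related GTPase families, which attack pathogen-containing vacuoles, mostly rose. Of 9 GBP genes tested, 8 rose, with a median log2 fold change of 2.05 against -0.01 over all genes. Gbp2 (chromosome 3, 142620602 to 142638008) was at 86.2, 77.5, 81.8 and 96.9 CPM in Mock-LLC and at 371, 327 and 343 CPM in SULT2B1b-LLC libraries, a rise of 4.05-fold (log2 2.02 ± 0.09, adjusted p = 2.26e-05). Gbp4 rose 6.97-fold from 9.79, 3.89, 12.6 and 9.96 CPM to 73.5, 61.2 and 52.8 CPM, and Gbp5, which takes part in inflammasome assembly, 4.15-fold from 3.47, 5.14, 5.89 and 2.84 CPM to 21.8, 16.9 and 15.1 CPM. Gbp3, Gbp6, Gbp7 and Gbp9 rose in every fit with 1 library left out, while Gbp8 passed in 3 of those 7 fits and did not without Mock-LLC 3 or 4 or SULT2B1b-LLC 2 or 4 (adjusted p up to 0.116). Gbp2b was the member that did not pass, with 0 to 1.65 CPM in Mock-LLC and 4.08 to 5.31 CPM in SULT2B1b-LLC. The GBP genes are close copies in clusters on chromosomes 3 and 5, and Gbp4 and Gbp8 overlap in the annotation, so the split of reads between members is uncertain.

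Among 13 immunity-related GTPase genes tested 8 rose. Iigp1 went from 15.4, 8.49, 8.18 and 15.8 CPM to 114, 98.7 and 71.8 CPM (7.90-fold, adjusted p = 0.00116), and Gm4951 from 4.59, 3.35, 3.34 and 4.40 CPM to 23.98, 25.7 and 20.9 CPM (5.99-fold). Ifi47, Igtp and Irgm1 rose by smaller steps, with log2 fold changes of 1.20, 1.12 and 0.70. With 1 library left out, 6 or 7 of the 13 passed.

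Promoters of interferon-induced genes are known to hold a gamma-activated site or an interferon-stimulated element, bound by IRF factors. The letters TTCNNNGAA, and GAAA followed by 2 bases of any kind and GAAA (the IRF letters), were searched on both strands of the 300 bases around each RefSeq start (250 before, 50 after, GRCm38.p6). The 250 bases before the start are printed for 5 genes that rose and hold a match, because they differ in which of these letters they hold. Other genes that rose hold none. Capitals mark the letters on either strand: TTCNNNGAA in Irf1 and Serpina3g, the IRF letters in Cxcl10 and Gbp2, and both in Gbp5, where the first and the last mark are TTCNNNGAA.
Cxcl10, chr5:92348890-92349139, minus strand: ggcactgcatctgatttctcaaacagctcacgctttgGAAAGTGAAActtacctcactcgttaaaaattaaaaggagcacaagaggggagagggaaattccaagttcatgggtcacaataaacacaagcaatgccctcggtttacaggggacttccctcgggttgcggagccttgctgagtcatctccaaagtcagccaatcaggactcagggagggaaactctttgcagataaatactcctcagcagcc
Gbp2, chr3:142620413-142620662, plus strand: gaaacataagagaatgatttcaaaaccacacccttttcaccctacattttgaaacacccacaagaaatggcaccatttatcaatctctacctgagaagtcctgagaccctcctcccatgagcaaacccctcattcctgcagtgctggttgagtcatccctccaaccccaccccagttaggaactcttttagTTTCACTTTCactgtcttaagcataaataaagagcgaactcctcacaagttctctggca
Gbp5, chr3:142496684-142496933, plus strand: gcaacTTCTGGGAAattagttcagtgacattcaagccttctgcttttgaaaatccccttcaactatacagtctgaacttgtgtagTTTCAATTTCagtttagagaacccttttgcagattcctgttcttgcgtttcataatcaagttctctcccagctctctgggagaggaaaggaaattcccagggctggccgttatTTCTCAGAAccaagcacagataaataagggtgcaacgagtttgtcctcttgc
Irf1, chr11:53769764-53770013, plus strand: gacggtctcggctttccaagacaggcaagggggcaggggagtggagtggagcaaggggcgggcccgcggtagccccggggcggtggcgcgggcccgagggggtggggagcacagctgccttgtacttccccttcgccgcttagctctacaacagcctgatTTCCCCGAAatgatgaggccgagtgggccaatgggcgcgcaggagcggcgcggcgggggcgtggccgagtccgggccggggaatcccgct
Serpina3g, chr12:104235897-104236146, plus strand: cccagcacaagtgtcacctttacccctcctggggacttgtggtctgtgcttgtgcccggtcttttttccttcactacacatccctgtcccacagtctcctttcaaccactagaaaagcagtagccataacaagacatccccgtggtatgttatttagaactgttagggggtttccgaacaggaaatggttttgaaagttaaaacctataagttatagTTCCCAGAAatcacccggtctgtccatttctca
All 6 GBP genes with a window listed under their symbol or a synonym held the IRF letters, and 2 of the 6 held TTCNNNGAA. A gene was counted if any of its windows held the letters. Counted over single windows, which is an unlike measure, 3.44% of all 32851 held the IRF letters and 8.3% TTCNNNGAA. Of the 187 genes that rose and had a window, 15.5% held the IRF letters and 13.4% TTCNNNGAA. Over the 10177 tested genes with one the shares were 4.04% and 8.27%. With 69.5% of tested genes matched, these last shares are void as a background. Cxcl9 held neither. As windows were found for 6 of the 9 GBP genes, a share over the family is void. For Irf1 the table lists 2 windows and the one shown is the upstream one. A match is a run of letters and was not shown to be bound.

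Antigen presentation genes were higher in both classes. Of 15 MHC class II genes tested, 7 rose: the chain genes H2-Aa, H2-Ab1 and H2-Eb1, the invariant chain Cd74, the peptide-exchange genes H2-DMa and H2-DMb1, and the protease Ctss. H2-Aa (chromosome 17, 34282744 to 34287823) stood at 2446, 2171, 2018 and 2282 CPM in Mock-LLC and at 6519, 5085 and 6821 CPM in SULT2B1b-LLC libraries. H2-Eb1 showed the same separation, with 2363, 2174, 2033 and 2111 CPM against 6620, 5210 and 6989 CPM. The 3 chain genes rose 2.75-fold, 2.79-fold and 2.89-fold (H2-Aa, H2-Ab1 and H2-Eb1; adjusted p = 0.000353, 0.000712 and 0.000245). H2-Oa and H2-Ob, which encode the DM inhibitor DO, did not pass, with log2 fold changes of -0.74 ± 0.24 and 0.36 ± 0.18, and neither did H2-DMb2. Itgax, which encodes CD11c, was at 95.4, 112, 97.0 and 85.6 CPM and at 120, 146 and 172 CPM and did not pass (adjusted p = 0.0604). Dendritic and B cells also make MHC class II, and sums of some of their markers stood higher in SULT2B1b-LLC. The summed level of 9 type 1 dendritic cell markers was 901 to 957 CPM in Mock-LLC and 1316 to 1444 CPM in SULT2B1b-LLC, with Xcr1 and Clec9a under 3 CPM in every library. Within that sum the single gene Naaa held 353 to 399 CPM in Mock-LLC and 752 to 846 CPM in SULT2B1b-LLC. The 4 tested B cell markers summed to 18.4 to 44.7 CPM and 70.4 to 113 CPM, with Pax5 at 0 counts in all. The single gene Ighm held 13.6 to 38.2 CPM of this sum in Mock-LLC and 58.0 to 96.1 CPM in SULT2B1b-LLC. The part of dendritic and B cells in the MHC class II result was not tested. In such bulk samples more cells of a type and more RNA per cell cannot be told apart.

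Of 18 genes of MHC class I and peptide loading, 11 rose and none fell, with a median log2 fold change of 0.61 over the list. Tap1, a subunit of the peptide transporter, was at 190, 205, 224 and 221 CPM in Mock-LLC and at 448, 419 and 395 CPM in SULT2B1b-LLC libraries (2.00-fold, adjusted p = 0.000636). The class I chain H2-K1 rose 1.67-fold, from 1780, 1939, 2069 and 2128 CPM to 3500, 3282 and 3113 CPM, and the non-classical H2-T23 1.69-fold. B2m, the shared light chain, rose by less (log2 0.53 ± 0.07, adjusted p = 0.00692). The general chaperones Calr and Canx and the trimming enzyme Erap1 had log2 fold changes of 0.13, 0.04 and 0.03 and did not pass. The immunoproteasome subunits Psmb8, Psmb9 and Psmb10 and the activator genes Psme1 and Psme2 rose, as 5 of 11 genes tested. Their constitutive counterparts Psmb5, Psmb6 and Psmb7 had log2 fold changes of -0.11, 0.02 and -0.01. Psmb9 stood at 81.2, 72.9, 76.3 and 89.8 CPM in Mock-LLC and at 155, 156 and 138 CPM in SULT2B1b-LLC libraries (1.87-fold, adjusted p = 0.0018), and it overlaps Tap1 at one end, where the reads of this unstranded kit cannot be told apart. Without SULT2B1b-LLC 2 the class I count was 6, and 8 to 10 without any other library, whereas H2-K1, H2-T23, Tap1 and B2m passed in all 7 such fits.

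**Figure D2:**
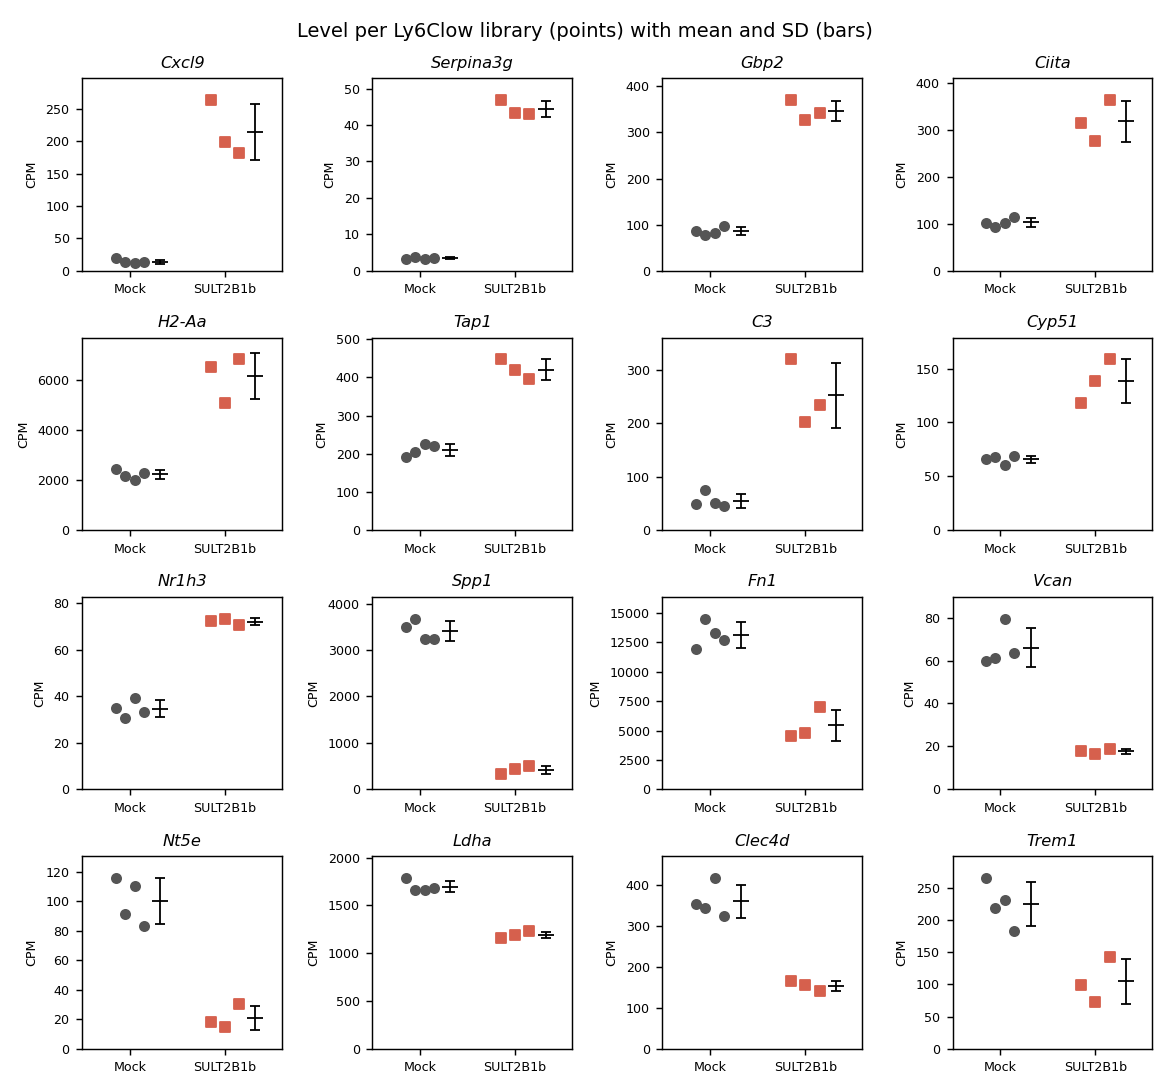
Level in CPM of 16 genes in each Ly6Clow library (circles, 4 Mock-LLC; squares, 3 SULT2B1b-LLC), with the mean and SD of each group as bars; every vertical axis starts at 0. In all 16 panels the groups do not overlap, with the first 9 genes higher in SULT2B1b-LLC, from 215 ± 43.2 against 14.0 ± 3.36 CPM for Cxcl9, and the last 7 lower, from 426 ± 83.4 against 3410 ± 220 CPM for Spp1.

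Few genes classed as type I interferon-stimulated passed by edgeR. Of 28 tested, 3 rose (10.7%, against 1.71% over all genes), with a median log2 fold change of 0.33. The fold change was above 1 for 25 of the 28, and 13 were higher without overlap (7.92% over all genes). At an unadjusted p under 0.05 the number was 15, against 2129 of all 14641 genes. DESeq2 called 10 higher, against 546 of all 14641. Zbp1, a sensor of Z-form nucleic acid, rose from 66.2, 61.5, 69.6 and 81.6 CPM to 154, 168 and 136 CPM (2.19-fold, adjusted p = 0.00163). Isg15, Ifit1 and Rsad2, typical targets of interferon-alpha and beta, had log2 fold changes of 0.29 ± 0.16, 0.14 ± 0.24 and -0.11 ± 0.18, and their groups overlapped. Oasl2 and Oas1a passed with all 7 libraries (adjusted p = 0.0331 and 0.0344), but of the 7 fits without 1 library Oasl2 passed in that without SULT2B1b-LLC 4 and Oas1a in none (adjusted p up to 0.109). No test compared this list with the interferon-gamma list. Of 13 genes for PYHIN proteins and other nucleic acid sensing, 6 rose, among them Tmem173, which encodes STING, from 116, 128, 114 and 124 CPM to 220, 212 and 189 CPM (1.72-fold, adjusted p = 0.00182), and Ifi205 (1.82-fold). The cGAS gene, listed as Mb21d1, did not pass (log2 -0.02 ± 0.16). The PYHIN genes are close copies, and the count of 6 was 3 without Mock-LLC 3, 2 without SULT2B1b-LLC 2 and 3 without SULT2B1b-LLC 3.

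The Ifitm genes, interferon-induced membrane proteins that block virus entry, did not all go one way. Of 6 tested, 4 fell: Ifitm1, Ifitm2, Ifitm3 and Ifitm6. The others did not pass, with log2 fold changes of 1.07 for Ifitm5 (adjusted p = 0.323), which was higher without overlap, and -3.27 for Ifitm10 (adjusted p = 0.109), and both were under 3 CPM in every library. Ifitm6 was at 58.1, 49.1, 55.0 and 54.4 CPM in Mock-LLC and at 16.6, 21.2 and 22.8 CPM in SULT2B1b-LLC libraries (2.68-fold lower, log2 -1.42 ± 0.13, adjusted p = 0.00122), and Ifitm1 at 62.2 to 76.9 CPM and 34.6 to 43.2 CPM (1.83-fold lower). These 2 genes passed in all 7 fits without 1 library. Ifitm3 (log2 -0.44 ± 0.09, adjusted p = 0.0321) passed in 2 of these and Ifitm2 (log2 -0.41 ± 0.08, adjusted p = 0.0299) in 1, without SULT2B1b-LLC 4.

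Complement genes moved both ways. C3, the central component, rose 4.61-fold from 48.1, 74.1, 51.0 and 45.1 CPM to 320, 202 and 234 CPM (log2 2.20 ± 0.20, adjusted p = 0.00116). C1qb, of the recognition molecule C1q, rose 1.45-fold from 3804, 3846, 3249 and 3919 CPM to 5328, 5524 and 5317 CPM (adjusted p = 0.00603). Of the receptor genes, Itgam and C5ar1 fell, while C3ar1 and Itgax did not pass. Itgax was higher without overlap (log2 0.58 ± 0.13, adjusted p = 0.0604). Itgam, which encodes the CD11b chain of complement receptor 3 and is a marker of myeloid cells, went from 2442, 2285, 2392 and 2197 CPM to 1473, 1503 and 1632 CPM (1.52-fold lower, log2 -0.60 ± 0.07, adjusted p = 0.00229). C5ar1, the C5a receptor, was 1.31-fold lower (adjusted p = 0.0099), but did not pass without SULT2B1b-LLC 2 or 3 (adjusted p = 0.0635 and 0.0662). In all, 5 of 15 complement genes rose and 2 fell. The count of rises was 3 without Mock-LLC 3, SULT2B1b-LLC 2 or SULT2B1b-LLC 4 and 2 without SULT2B1b-LLC 3. The third C1q gene, C1qc, did not pass (log2 0.58 ± 0.14, adjusted p = 0.0766).

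Among 17 genes by which myeloid cells can restrain T cells, 3 rose and 1 fell. Pdcd1lg2, which encodes the PD-1 ligand PD-L2, rose 5.19-fold from 3.29, 5.83, 2.84 and 3.70 CPM to 20.4, 25.6 and 15.4 CPM (adjusted p = 0.00306). The gene of the other PD-1 ligand, Cd274 (PD-L1), was at 38.5, 31.4, 39.9 and 42.2 CPM and at 94.1, 56.8 and 62.8 CPM and passed with all 7 libraries (1.88-fold, adjusted p = 0.0343). It did not pass without Mock-LLC 1, 2, 3 or 4 or SULT2B1b-LLC 2 or 4, with adjusted p-values of 0.0586 to 0.0863, and passed without SULT2B1b-LLC 3. The enzymes that turn extracellular ATP into adenosine moved apart. Entpd1 (CD39), which hydrolyses ATP and ADP, rose 1.48-fold from 172, 164, 185 and 171 CPM to 275, 235 and 258 CPM (adjusted p = 0.00619). Nt5e (CD73), which makes adenosine from AMP, fell 4.73-fold from 116, 91.5, 110 and 83.2 CPM to 18.4, 14.8 and 30.2 CPM (log2 -2.24 ± 0.25, adjusted p = 0.00229). Arg1, the arginase of suppressive myeloid cells, stood at 7029, 9110, 5972 and 5870 CPM and at 3396, 4915 and 3251 CPM without overlap, but did not pass (log2 -0.86 ± 0.19, adjusted p = 0.0525). It passed without SULT2B1b-LLC 3 (adjusted p = 0.0361).

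Chemokine and cytokine genes outside the interferon-gamma group mostly did not pass. None of 13 CC chemokine genes passed by edgeR, while DESeq2 called 1 higher and 1 lower (546 and 375 of all 14641 genes). At an unadjusted p under 0.05 there were 4 of 13, against 2129 of all 14641. Of 17 inflammatory cytokine genes 1 passed by edgeR, Il27, from 2.32 to 2.94 CPM to 6.45 to 6.79 CPM (2.54-fold, adjusted p = 0.0122). Il27 did not pass without SULT2B1b-LLC 2 (adjusted p = 0.0593). Tnf, Il1b and Il6 had log2 fold changes of 0.22, 0.33 and 0.48 with overlapping groups. Of 8 other CXC chemokine genes, Cxcl16, whose product also binds oxidised lipoproteins, rose 1.87-fold from 338, 273, 357 and 279 CPM to 602, 564 and 578 CPM (adjusted p = 0.00261). Cxcl14 fell 3.63-fold, from 107, 107, 105 and 106 CPM to 19.2, 29.97 and 38.6 CPM (log2 -1.86 ± 0.20, adjusted p = 0.00229).

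Among genes of extracellular matrix and wound repair more fell than rose. Of 25 tested, 7 fell and 2 rose. Spp1 (chromosome 5, 104435118 to 104441050) encodes osteopontin, a secreted phosphoprotein made by many tumour macrophages. It stood at 3502, 3678, 3232 and 3229 CPM in Mock-LLC and at 334, 446 and 496 CPM in SULT2B1b-LLC libraries, 8.01-fold lower (log2 -3.00 ± 0.14, adjusted p = 2.26e-05). Every SULT2B1b-LLC library was below every Mock-LLC library by a wide margin. Fn1, fibronectin (chromosome 1, 71585520 to 71653200), fell 2.40-fold from 11910, 14530, 13260 and 12670 CPM to 4529, 4831 and 6973 CPM (adjusted p = 0.00288). Vcan (chromosome 13, 89655312 to 89742509), which encodes the proteoglycan versican and is also high in monocytes, fell 3.71-fold from 59.7, 61.1, 79.5 and 63.5 CPM to 17.9, 16.5 and 18.9 CPM (adjusted p = 0.000305). Adam8, a membrane protease, fell as well (log2 -0.66 ± 0.10, adjusted p = 0.00802), and all 4 passed in the 7 fits without 1 library. Sparc, Mmp3 and Ecm1 fell with all 7 libraries and passed in 0, 2 and 0 of these fits. The count of falls was 4 without Mock-LLC 1 or 3 or any SULT2B1b-LLC library. Igf1, insulin-like growth factor 1, rose 3.10-fold from 20.3, 27.1, 12.6 and 24.1 CPM to 54.4, 73.2 and 68.9 CPM (adjusted p = 0.00775), and Mmp12, a macrophage elastase gene, rose in the fit of all 7 libraries (adjusted p = 0.0441) and in 2 of the 7 without 1.

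Fibroblast markers were measured beside these matrix genes. The summed level of 7 fibroblast markers was 142 to 307 CPM in Mock-LLC and 51.4 to 149 CPM in SULT2B1b-LLC, with overlap. Lum passed (3.56-fold lower, adjusted p = 0.022), but not without Mock-LLC 3 or 4 or SULT2B1b-LLC 2 or 3, and Col1a1 had 1.16 to 4.40 and 0.935 to 6.11 CPM. Its part in the matrix result was not tested.

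Glycolysis and its induction under low oxygen, through the hypoxia-inducible factor HIF-1, form a list of 30 tested genes. Of these, 17 fell and none rose, with a median log2 fold change of -0.50. Ldha, lactate dehydrogenase A (chromosome 7, 46841475 to 46855627), was at 1788, 1663, 1658 and 1678 CPM in Mock-LLC and at 1161, 1189 and 1227 CPM in SULT2B1b-LLC libraries (1.42-fold lower, log2 -0.51 ± 0.06, adjusted p = 0.00261). Aldoa, fructose-bisphosphate aldolase, fell by the same fold of 1.42 (adjusted p = 0.00417), and Tpi1, triose-phosphate isomerase, by 0.55 on the log2 scale. Pgk1, phosphoglycerate kinase, was at 220, 231, 201 and 171 CPM and at 116, 127 and 125 CPM (log2 -0.75 ± 0.11, adjusted p = 0.00802), and the glucose carrier Slc2a1 at 365 to 478 CPM and 256 to 280 CPM. Larger falls were those of Ankrd37, a HIF-1 target of little-known function, from 54.6, 42.4, 51.9 and 49.3 CPM to 19.4, 26.1 and 19.2 CPM (2.30-fold lower, adjusted p = 0.00406), and of the mitophagy receptor Bnip3 (log2 -1.04 ± 0.14, adjusted p = 0.00676). Hif1a itself (log2 -0.20 ± 0.09) and Vegfa (log2 -0.56 ± 0.28) did not pass. The median stayed between -0.44 and -0.52 in every fit without 1 library. The count was 10 without Mock-LLC 2, 9 without Mock-LLC 3, 7 without SULT2B1b-LLC 2 or 3 and 11 without SULT2B1b-LLC 4, and Ldha, Aldoa, Tpi1, Bnip3 and Ankrd37 passed in all 7 of these fits.

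HIF-1 is known to bind ACGTG within hypoxia-response elements. The 250 bases before the RefSeq start (GRCm38.p6) are printed for 3 genes of the list that fell, to show where these letters lie. Capitals mark ACGTG on either strand; in Ldha the 2 runs CACGTG each hold a match on both strands.
Ldha, chr7:46845554-46845803, plus strand: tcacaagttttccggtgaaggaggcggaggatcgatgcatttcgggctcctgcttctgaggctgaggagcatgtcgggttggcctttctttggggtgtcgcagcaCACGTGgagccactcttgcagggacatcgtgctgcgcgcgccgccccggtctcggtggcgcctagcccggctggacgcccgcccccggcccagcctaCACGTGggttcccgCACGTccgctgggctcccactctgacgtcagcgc
Pgk1, chrX:106186850-106187099, plus strand: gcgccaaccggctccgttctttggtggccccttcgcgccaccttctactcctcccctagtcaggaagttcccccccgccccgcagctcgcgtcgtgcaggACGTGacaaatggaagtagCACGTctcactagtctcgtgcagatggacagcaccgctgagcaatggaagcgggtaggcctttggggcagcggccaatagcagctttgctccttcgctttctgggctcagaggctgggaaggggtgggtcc
Ankrd37, chr8:45999851-46000100, minus strand: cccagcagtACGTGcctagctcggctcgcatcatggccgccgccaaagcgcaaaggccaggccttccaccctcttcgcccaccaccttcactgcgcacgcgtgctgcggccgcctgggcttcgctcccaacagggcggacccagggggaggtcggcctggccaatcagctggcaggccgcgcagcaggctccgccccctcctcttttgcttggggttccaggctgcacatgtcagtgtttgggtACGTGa
Of the 28 list members with a window (28 of 30 were matched), 22 held ACGTG within the 300 bases, which is 78.6%. A gene was counted if any of its windows held the letters. Counted over single windows, which is an unlike measure, 19.6% of all 32851 windows of the table held them. Of the 14641 genes tested, 10177 had a window and 29.1% of these held the letters, as did 35.2% of all genes that fell and had one; with 69.5% of tested genes matched, the share over tested genes is void as a background. Of the members split by response, 13 of the 17 genes that fell held them (76.5%), and 9 of the 11 others (81.8%). For Ldha the table lists 2 windows and the first is shown.

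Cholesterol synthesis genes and other targets of SREBP2, the factor that is activated when membrane sterol is low, were higher. Of 23 tested, 10 rose and none fell, and all 23 fold changes were above 1, with a median log2 value of 0.68. Cyp51, the lanosterol demethylase gene (chromosome 5, 4081145 to 4104746), was at 66.0, 67.6, 60.9 and 68.6 CPM in Mock-LLC and at 118, 138 and 159 CPM in SULT2B1b-LLC libraries (2.10-fold, adjusted p = 0.0015). Fdft1, squalene synthase, rose 1.89-fold from 28.1, 28.4, 28.7 and 27.4 CPM to 46.4, 57.1 and 56.1 CPM (adjusted p = 0.00261). Msmo1, which acts after Cyp51, rose 1.81-fold. Srebf2 did not pass (log2 0.26 ± 0.11). Without Mock-LLC 3, SULT2B1b-LLC 3 or SULT2B1b-LLC 4 the count was 5, among them Cyp51, Fdft1 and Msmo1, which passed in all 7 fits without 1 library.

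LXR genes moved both ways. Of 20 receptors, partners and targets tested, 4 rose and 2 fell, with a median log2 fold change of 0.10. Nr1h3, which encodes LXR alpha (chromosome 2, 91184061 to 91202834), rose 2.09-fold from 35.2, 30.8, 39.5 and 33.1 CPM to 72.2, 73.5 and 70.7 CPM (log2 1.06 ± 0.10, adjusted p = 0.00144), while Nr1h2, LXR beta, had a log2 fold change of -0.04 ± 0.09. Of its textbook targets, Apoe, apolipoprotein E, rose 1.72-fold from 6495, 7394, 7314 and 9076 CPM to 13290, 12010 and 13770 CPM (adjusted p = 0.00627). Pltp, the phospholipid transfer protein, rose 1.52-fold from 747, 794, 785 and 809 CPM to 1122, 1224 and 1237 CPM (adjusted p = 0.00175). The cholesterol exporter Abca1 was lower, at 238, 207, 234 and 168 CPM against 147, 132 and 125 CPM (1.57-fold, adjusted p = 0.0319). Abca1 passed in 1 of the 7 fits without 1 library, that without Mock-LLC 4, and its adjusted p was 0.0597 to 0.131 in the others. Abcg1, the other exporter, was at 93.4 to 116 CPM and 130 to 150 CPM and did not pass (adjusted p = 0.079). Srebf1 and Scd1, lipogenic targets, had log2 fold changes of -0.05 and 0.11. Fasn, another lipogenic target, was among the 4 that rose. Its log2 fold change was 0.93 to 1.17 over fits with other settings or 1 library left out. Fasn passed in 5 of the 7 fits without 1 library. Mlxipl, the carbohydrate-response factor ChREBP and a target of LXR in liver, fell 6.27-fold from 30.02, 33.4, 37.2 and 48.9 CPM to 4.06, 9.25 and 4.53 CPM (log2 -2.65 ± 0.32, adjusted p = 0.00325). Low in both groups but without overlap, Pparg, the lipid-sensing receptor PPAR gamma, rose 3.74-fold from 1.84 to 3.49 CPM to 8.80 to 9.86 CPM (adjusted p = 0.00627), and its coactivator Ppargc1b 2.96-fold.

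**Figure D3:**
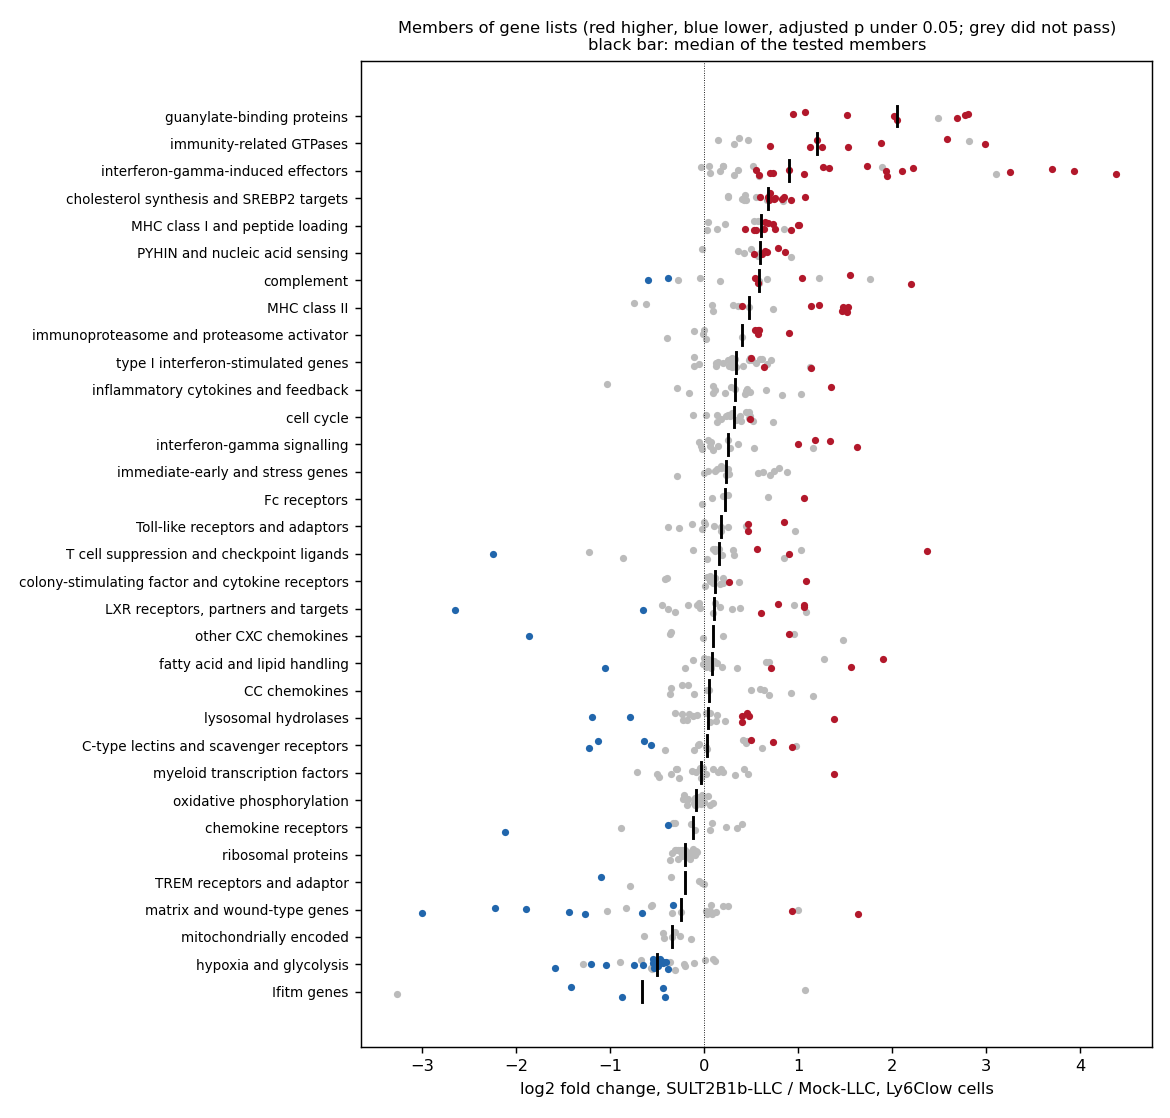
Log2 fold change of SULT2B1b-LLC over Mock-LLC in Ly6Clow cells (horizontal axis) for the tested members of 33 gene lists (rows), red where higher, blue where lower and grey where the test was not passed, with a black bar at each list's median. Guanylate-binding proteins stand highest, with a median of 2.05, and Ifitm genes lowest, at -0.66; the hypoxia and glycolysis list lies around -0.50.

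C-type lectin receptors, which bind sugars and products of dying cells, moved both ways. Clec4a1, Clec4a3 and the inhibitory receptor Clec12a rose, although the Clec4a genes are close copies whose reads can be split wrongly. Clec12a went from 190, 140, 148 and 168 CPM to 330, 292 and 304 CPM (1.91-fold, adjusted p = 0.00288), and Clec4a3 from 156, 126, 136 and 146 CPM to 238, 231 and 232 CPM (1.66-fold, adjusted p = 0.00261). The activating receptors Clec4d, Clec4e and Clec5a fell. Clec4d was at 354, 344, 417 and 325 CPM in Mock-LLC and at 166, 155 and 141 CPM in SULT2B1b-LLC libraries (2.34-fold lower, adjusted p = 0.000777). Clec5a fell from 258, 237, 246 and 216 CPM to 147, 159 and 156 CPM (1.55-fold lower, adjusted p = 0.00379). In all 3 of 18 genes rose and 4 fell; the falls were 2 without Mock-LLC 3 or SULT2B1b-LLC 2 or 4, and Clec4e (adjusted p = 0.04) and the scavenger receptor Msr1 (adjusted p = 0.0249) did not pass in 6 and 3 of the 7 fits without 1 library.

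Trem1, an activating receptor that amplifies inflammation, was at 266, 218, 231 and 182 CPM in Mock-LLC and at 99.2, 73.2 and 142 CPM in SULT2B1b-LLC libraries. The groups did not overlap and Trem1 fell 2.14-fold (log2 -1.10 ± 0.21, adjusted p = 0.0319). Without Mock-LLC 1, 2 or 3 or SULT2B1b-LLC 2 or 3 it did not pass (adjusted p = 0.0586 to 0.139), and without Mock-LLC 4 or SULT2B1b-LLC 4 it did. Of the 6 genes of the list no other passed by edgeR, while DESeq2 called 2 lower (375 of all 14641 genes). The activating IgG receptor Fcgr4 rose 2.08-fold from 111, 92.9, 94.7 and 90.4 CPM to 235, 206 and 168 CPM (adjusted p = 0.0027), whereas Fcgr1, Fcgr2b and Fcgr3 had log2 fold changes of 0.20, 0.25 and 0.08 and did not pass. Csf3r, the G-CSF receptor, rose 2.12-fold from 36.2 to 48.9 CPM to 84.0 to 96.2 CPM (adjusted p = 0.00211), while the neutrophil markers summed to 500 to 781 and 596 to 739 CPM. Unc93b1, which carries nucleic acid-sensing Toll-like receptors to endosomes, rose 1.38-fold (adjusted p = 0.0102). Tlr2, Tlr4 and Tlr7 had log2 fold changes of -0.01, 0.01 and -0.13.

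Of the lysosomal genes, 5 of 20 rose and 2 fell. Without SULT2B1b-LLC 4 the rises were 2, and 4 or 5 without any other library; the falls were 1 without Mock-LLC 1, 3 or 4 or SULT2B1b-LLC 2 or 4. Gpnmb, a glycoprotein of lipid-laden macrophages, rose 2.61-fold from 31.2, 21.7, 32.6 and 25.0 CPM to 51.7, 77.5 and 86.9 CPM (adjusted p = 0.00802), and Psap, the precursor of saposins, 1.37-fold (adjusted p = 0.00721). The cysteine protease gene Ctsl fell 1.73-fold from 1221, 1144, 1230 and 1061 CPM to 795, 627 and 592 CPM (adjusted p = 0.00627). Gpnmb, Psap and Ctsl passed in all 7 fits without 1 library, and Ctsk and Ctss in 2 each.

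Several programmes gave no or single passing genes. None of 21 oxidative phosphorylation genes, 7 mitochondrially encoded genes, 24 ribosomal protein genes or 17 immediate-early and stress genes passed by edgeR, with median log2 fold changes of -0.09, -0.34, -0.20 and 0.23. At an unadjusted p under 0.05 the numbers were 0, 3, 10 and 2, against 2129 of all 14641 genes. By DESeq2 0, 0, 2 and 1 passed, against 921 of all 14641. Of 20 cell cycle genes 1 passed, Mcm7 (adjusted p = 0.0343, and in 1 of 7 fits without 1 library), and of 21 myeloid transcription factors 1, Batf3. Yet the fold change was above 1 for 19 of the 20 cell cycle genes, and 10 were higher without overlap (7.92% over all genes). At an unadjusted p under 0.05 there were 10 cell cycle genes and 7 transcription factors. DESeq2 called 6 cell cycle genes higher, and 2 transcription factors higher and 2 lower (over all genes 546 higher and 375 lower). The immediate-early genes varied within groups. Fosb was at 247 to 318 CPM in Mock-LLC and at 541, 199 and 677 CPM in SULT2B1b-LLC, where library 3 was the low one, and Atf3 was also lowest in library 3, with 1083, 277 and 842 CPM.

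Markers of cell types moved with the groups in several cases. Of 11 macrophage markers 5 rose, among them Adgre1 from 686, 664, 665 and 762 CPM to 1149, 996 and 1061 CPM (1.54-fold, adjusted p = 0.00362), while Cd68 and Trem2 had log2 fold changes of -0.13 and -0.00. The count was 3 without any 1 of the SULT2B1b-LLC libraries and 4 without any 1 of the Mock-LLC libraries. Adgre1 passed in all 7 of these fits, C1qa in 4 and Csf1r in none. Selenop, a selenium carrier found in resident-like macrophages, rose 1.89-fold (adjusted p = 0.00897), whereas Lyve1, Folr2 and Timd4 of the same list did not pass. Classical monocyte markers summed to 2518 to 3011 CPM in Mock-LLC and to 2178 to 2529 CPM in SULT2B1b-LLC. Of the 9 tested, 2 fell and 1 rose. Vcan and Hp, which encodes haptoglobin (2.87-fold lower, adjusted p = 0.00802), fell, and Ccr2 did not pass (log2 -0.14 ± 0.09). Mgst1 rose 1.61-fold (adjusted p = 0.0344), but passed in 1 of the 7 fits without 1 library. Of 9 type 1 dendritic cell markers 4 rose. Naaa, a lysosomal amidase, went from 399, 370, 353 and 388 CPM to 752, 778 and 846 CPM (2.10-fold, adjusted p = 0.000245) and passed in all 7 fits without 1 library, whereas Batf3, Cadm1 and Tlr3 passed in 1, 3 and 2 of them. Xcr1, the defining gene, was at 1.55 to 1.99 and 0.468 to 2.54 CPM.

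Eosinophil markers, 8 of 10 measured, summed to 434 to 565 CPM in Mock-LLC and 649 to 812 CPM in SULT2B1b-LLC. Siglecf, Prg2 and Alox15 passed with all 7 libraries (adjusted p = 0.0195, 0.0225 and 0.0192), and in 4, 2 and 4 of the 7 fits without 1 library, while the peroxidase gene Epx was at 0 to 1.33 CPM. Of 4 tested B cell markers 2 rose. Cd79b was scarce, at 4.09 to 5.71 CPM and 11.1 to 15.8 CPM (2.84-fold, adjusted p = 0.0059). Ighm was at 13.6 to 38.2 CPM and 58.0 to 96.1 CPM (3.46-fold, adjusted p = 0.0223), and passed in 3 of the 7 fits without 1 library. T cell markers were at or near 0: of 10, Cd8a had no count and 7 fell below the filter, and Cd4 and Lck summed to 0 to 1.07 CPM in Mock-LLC and 1.70 to 4.57 CPM in SULT2B1b-LLC. The cytotoxic gene Gzmb was at 0 in 3 Mock-LLC libraries and at 0.0998 CPM in the fourth, against 1.56, 0.434 and 0.941 CPM; it passed with all 7 libraries (adjusted p = 0.0431) and in none of the 7 fits without 1 library. Whether cells of these types contribute to the interferon-gamma, MHC class II or lipid results was not tested.

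**Figure D4:**
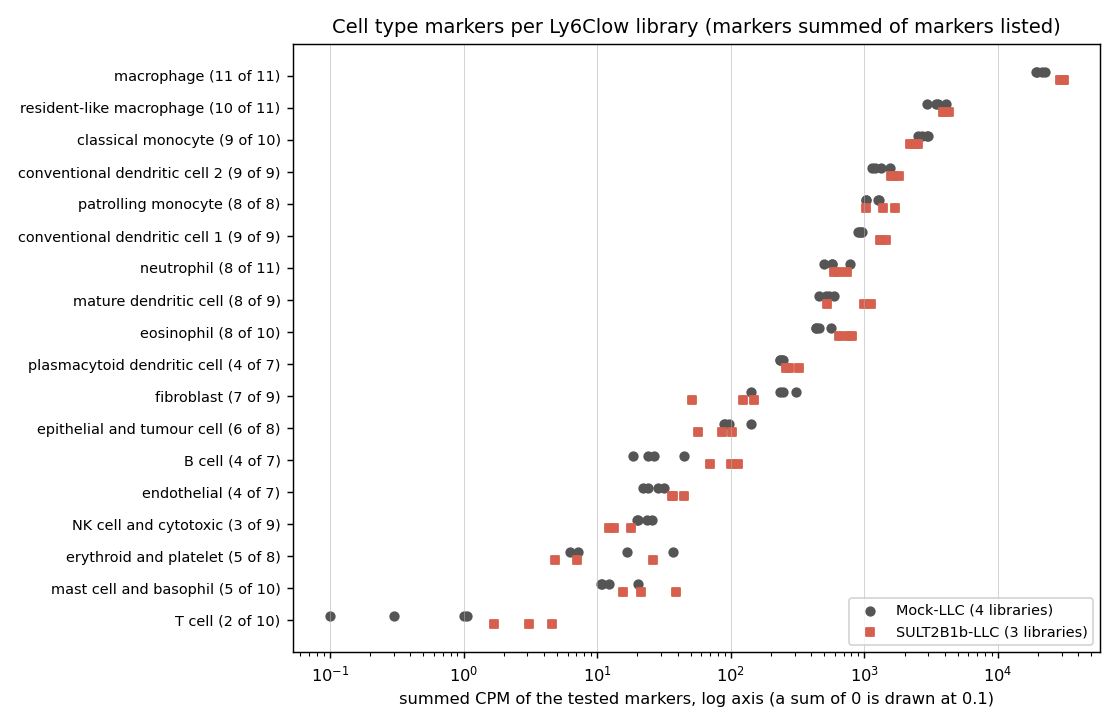
Summed CPM of the tested markers of 18 cell types (rows; markers summed of markers listed in brackets) in each Ly6Clow library on a log axis, with a sum of 0 drawn at 0.1 (circles, 4 Mock-LLC; squares, 3 SULT2B1b-LLC). Macrophage, dendritic cell 1 and 2, plasmacytoid, eosinophil, B cell, T cell and endothelial sums are higher without overlap in SULT2B1b-LLC and the NK cell sum is lower, while monocyte, neutrophil, fibroblast and epithelial sums overlap.

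Whether these changes differ from those in Ly6Chigh CD11c+ MHC-II+ cells was asked with an interaction term over all 15 libraries. The labels do not say whether same-numbered Ly6Clow and Ly6Chigh libraries share a tumour, and the fit takes all 15 as independent. Of 13800 genes tested 2 passed (0.0145%), Alox15 and Thbs3. Of the 422 genes that passed in Ly6Clow cells, 417 could be tested and 1 passed, Alox15, a lipoxygenase gene. An unadjusted interaction p under 0.05 was found for 102 of these 417, against 986 of all 13800. The fold change had the same sign in Ly6Chigh cells for 354 of the 417. The share over all 13800 genes was not counted, so this number has no background. In Ly6Clow cells Alox15 was at 244 ± 38.5 CPM in Mock-LLC (n = 4) and 400 ± 41.0 CPM in SULT2B1b-LLC (n = 3), and in Ly6Chigh cells at 0.0905 and 9.48 CPM. For the leading genes of Ly6Clow cells the 2 populations are given side by side. Serpina3g had a log2 fold change of 3.70 in Ly6Clow and 1.67 in Ly6Chigh cells (interaction adjusted p = 0.131), Cxcl9 of 3.94 and 2.45 (0.338), and Spp1 of -3.00 and -1.70 (0.41). Vcan had -1.89 and -0.52 (0.305). None of these differences between populations passed. Of the Ly6Chigh libraries, SULT2B1b-LLC 1 lay apart from the rest, with 2617878 counts spread over 24540 genes. When it was left out 3 genes passed the interaction test, and when Mock-LLC 4 of the Ly6Chigh libraries was left out 28 did. In the fit of all 15 libraries the Ly6Clow comparison itself called 88 of 13800 genes (0.638%).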

How the data were processed

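Total RNA of sorted Ly6Clow cells was made into unstranded SMART-Seq v4 libraries from 500 ng of RNA and sequenced as 75-nt single reads, per the labels' protocols. The authors deposited raw counts of reads per gene symbol; STAR 2.5.3a, featureCounts, limma and the build mm10 (GRCm38) are named per the submitters' processing notes, and annotation release and counting options: not given in the sources used here. Gm and Rik gene models held 1.17 to 1.35% of the counts of the 7 Ly6Clow libraries. They were kept in the fit, and 10 of the 422 genes that passed were such models. Reads of overlapping genes on opposite strands cannot be told apart in these counts.

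The 7 Ly6Clow libraries were fitted on their own with edgeR 4.0.16 in R 4.3.3 (filterByExpr, TMM, robust quasi-likelihood test, two-sided, Benjamini-Hochberg adjustment over 14641 genes). The steps were tested on simulated data. A fit of all 15 libraries gave the interaction of tumour type and sorted population. Alternatives used DESeq2 1.42.0, limma 3.58.1, other scalings and filters, a replicate block (a tumour block for the interaction), stricter thresholds and fits without 1 library. Replicates are numbered tumours; their p-values reflect variation among these libraries alone, which may in part be technical.

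Named genes were the 15 largest changes per direction among genes that passed, provided the mean log2 CPM was at least 3 and there was no overlap, Gm and Rik models excepted, up to 3 per list and direction, and Sult2b1, Ly6c1, Ly6c2, Itgam, Itgax and Trem1; 71 others were added after their values were seen. The members and the 33 programme and 18 cell type lists were chosen with earlier results of these data known. Gene positions are from GENCODE release 21 of mouse, matched by symbol. Promoter windows are from RefSeq (GRCm38.p6), matched by symbol or, where that failed, by a synonym. It was not checked whether different symbols reached the same window.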

Additional observations from a re-analysis of the deposited data

Results flagged for a closer look

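Among 204 sets of 4 Mock-LLC values examined, 13 held a library set apart from the other 3 by Dixon's criterion, which chance gives in about 1 of 20. The criterion takes the gap relative to the range of the 4 values, so a small gap can be flagged. Mock-LLC 1 had the highest Ldha (1788 CPM, the others 1658 to 1678) and H2-T22 (63.6 CPM, the others 62.67 to 62.79). It also had the highest Ctsh (591.1 CPM, the others 495 to 511.2) and the lowest Slc16a3 (442.4 CPM, the others 501 to 506.9). Mock-LLC 2 had the lowest Batf2 (2.991 CPM) and Xaf1 (28.51 CPM) and the highest sum of epithelial and tumour cell markers (142.9 CPM). Mock-LLC 3 had the lowest H2-DMb1 (201.1 CPM) and the highest H2-Q6 (90.57 CPM). It had the only Gzmb level above 0 in its group (0.0998 CPM, which is 2 counts and under the floor of 3). Mock-LLC 4 had the highest Batf3 (13.05 CPM), Thbs3 (3.056 CPM) and sum of eosinophil markers (564.7 CPM).

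The tumour effect differed between Ly6Clow and Ly6Chigh cells for 2 genes by the interaction term in edgeR. For Alox15 the log2 fold change in Ly6Clow minus that in Ly6Chigh cells was -5.66 (adjusted p = 0.00362). For Thbs3, a thrombospondin gene, it was -10.64 (adjusted p = 0.0402), with 1.92 ± 0.757 CPM in Mock-LLC and 1.83 ± 0.509 CPM in SULT2B1b-LLC Ly6Clow cells, and 0 in all 4 Mock-LLC libraries against 10.3 ± 4.10 CPM in the 4 SULT2B1b-LLC libraries of Ly6Chigh cells. The fitted value for Thbs3 depends on the prior count because one group is at 0.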

How the results depend on the processing

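The count of 422 genes in Ly6Clow cells was 399 to 510 under other scalings and filters, limma-voom and a non-robust fit. Without scaling factors 52.7% of calls were higher, against 59.2%. It was 921 with DESeq2, 88 with all 15 libraries in the fit, 76 against a fold of 1.5, 167 at an adjusted p under 0.01, and 193 to 351 with 1 library left out; the cause was not tested. Same-numbered Mock-LLC and SULT2B1b-LLC libraries come from different tumours, and their deviations from the group means correlated at -0.142, -0.160 and 0.0633, so the numbers were not taken as pairs; with the replicate block 98 genes passed. For the interaction the count of 2 was 1 with no filter, 109 with DESeq2, 0 with limma-voom and quality weights (1286 at an unadjusted p under 0.05) and 1 to 28 with 1 library left out. With a tumour block the interaction count was 0 (1095 at an unadjusted p under 0.05). That block took same-numbered Ly6Clow and Ly6Chigh libraries of a tumour type as 1 tumour, which the labels do not state. Of the 173 named genes that passed, 46 kept the call in all 15 alternatives run gene by gene (scalings, DESeq2, both limma-voom fits, all 15 libraries, the replicate block and each library left out), which do not include the other filters, the non-robust fit or the stricter thresholds, and none changed sign in them. Genes that did not pass did: Ly6c2 was at -0.0219 with quality weights, -0.0614 with the replicate block and -0.0972 to 0.221 with 1 library left out (below 0 without Mock-LLC 1 or 2 or SULT2B1b-LLC 2 or 3), and Thbs3 at -0.322 to 0.241 (above 0 without Mock-LLC 4 or SULT2B1b-LLC 2 or 3). The hypoxia and glycolysis count of 17 was 2 with all 15 libraries, 1 with the replicate block and 20 with DESeq2, and the cholesterol synthesis count of 10 was 3, 2 and 14. In the same order, the rises among interferon-gamma-induced effectors (17) were 8, 8 and 21, among MHC class I genes (11) 5, 3 and 14, among immunity-related GTPases (8) 4, 5 and 9, among guanylate-binding proteins (8) 8, 4 and 9, among complement genes (5) 2, 1 and 7, among lysosomal genes (5) 0, 1 and 6 and among macrophage markers (5) 2, 1 and 7, and the falls among Ifitm genes (4) were 2, 1 and 5. Genes under a few CPM are limited by depth.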
